A study of Mus musculus with 12 samples.

Results

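The genes described here are 7 genes of the myelin programme of Schwann cells, the glia that wrap peripheral axons: Mbp, Pmp22, Prx, Mag, Mal, Cnp and Egr2. They were taken from a table of 23598 rows as the rows that carry these 7 symbols, and each symbol stood in exactly 1 row. All 7 passed the filter on low values and were among the 14581 rows tested.

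RNA came from the cochlea, the hearing organ, of mice at postnatal day 7. Its apical and middle turns were used, and the labels put 6 or more cochleae into each pool. The 12 samples formed 4 groups of 3, named by genotype. They were Control, b-catenin-OE (b-catenin overexpression), Notch1-KO (Notch1 knockout) and b-catenin-OE and Notch1-KO, called the combined group below. Strain, sex, the alleles and the promoter or Cre driver behind each genotype, and whether Control animals carried any of them, are not named in the labels. The design text names supporting cell proliferation and hair cell generation after changes to the Wnt and Notch pathways as the subject. Whether the 3 samples of a group were separate pools is not said, so a p-value speaks only for the spread among these samples, part of which may be technical.

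In the cochlea, Schwann cells myelinate the peripheral axons of spiral ganglion neurons, and myelination is under way in the early postnatal period. The transcription factor Egr2 (Krox20) acts with Sox10 to switch on genes for myelin proteins and lipids, and mice without Egr2 arrest before myelination. Mbp and Pmp22 are proteins of compact myelin, Prx and Mag act at the outer and inner faces of the sheath, and Mal and Cnp serve membrane sorting and non-compact myelin. Mbp, Mag, Mal and Cnp are also made by oligodendrocytes, and Pmp22, Mal and Cnp also by cells that are not glia.

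Promoter windows of RefSeq (GRCm38.p6, 250 bases before to 50 after a start) were searched for the letters of the binding cores of these regulator families. They covered 6 of the 7 genes with 15 windows, and Mbp is named only. Shown is the first-listed window with a match for each of the 3 genes that had one, since the genes were described together for a shared programme. Capitals mark the SOX core ACAAAG, or CTTTGT when it lies on the other strand, in Mag and Cnp. In Egr2 they mark CGCCCAC, which is the EGR core GTGGGCG read from the other strand.
Mag, chr7:30914814-30915113, minus strand: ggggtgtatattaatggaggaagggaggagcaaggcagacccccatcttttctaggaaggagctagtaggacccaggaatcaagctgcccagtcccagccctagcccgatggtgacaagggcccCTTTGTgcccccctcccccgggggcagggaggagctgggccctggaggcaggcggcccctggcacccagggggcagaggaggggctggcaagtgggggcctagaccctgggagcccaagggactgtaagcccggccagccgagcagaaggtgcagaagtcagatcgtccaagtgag
Cnp, chr11:100574689-100574988, plus strand: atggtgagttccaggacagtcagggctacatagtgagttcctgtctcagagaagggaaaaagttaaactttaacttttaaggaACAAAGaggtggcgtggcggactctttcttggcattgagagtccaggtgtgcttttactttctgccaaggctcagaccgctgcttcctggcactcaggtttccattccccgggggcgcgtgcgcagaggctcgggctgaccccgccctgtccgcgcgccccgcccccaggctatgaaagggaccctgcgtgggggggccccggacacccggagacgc
Egr2, chr10:67535249-67535548, plus strand: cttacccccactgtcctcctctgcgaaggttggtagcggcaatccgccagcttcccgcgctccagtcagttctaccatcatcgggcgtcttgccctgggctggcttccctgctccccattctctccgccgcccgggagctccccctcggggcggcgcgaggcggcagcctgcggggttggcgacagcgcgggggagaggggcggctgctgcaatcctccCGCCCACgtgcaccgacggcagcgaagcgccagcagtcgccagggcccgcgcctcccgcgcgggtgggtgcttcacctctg
The SOX core, searched on both strands, began at base -126 from the start in Mag and at -167 in Cnp. The same letters lay at -67 in the second Mag window, which is not shown. The EGR core began at -31 in Egr2 itself. The SOX core stood in windows of 21% of 27025 genes and the EGR core in 8.99%, and the letters of the 2 cores do not overlap each other. Of the 6 genes with a window, 2 held the SOX core and 1 the EGR core. A match is a description of letters and not a binding site.

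The unit is FPKM, in which the authors scaled fragment numbers to transcript length and to the mapped fragments of a library. Differences are on the log2(FPKM + 0.5) scale with their standard error, and the test is limma's, with p adjusted by Benjamini-Hochberg over all tested rows of a comparison. Depth per library is not stated. The low values of samples 2 and 3 lay on steps of whole fragments, with 78.2% to 82.5% of them within 0.1 of a whole number, which gives 18500000 to 26400000 fragments if nothing was rescaled. In samples numbered 1 that share was 28.7% to 42.2%, and no depth can be read from them. Within a group, samples 2 and 3 were close to each other over all tested rows (robust SD of the log2 difference 0.108 to 0.16), and sample 1 stood apart from their mean (0.323 to 0.487). Notch1 measured 24.3, 14.7 and 16.6 FPKM in Control, 9.16, 7.63 and 7.56 in Notch1-KO, 8.62, 5.70 and 5.77 in the combined group and 37.6, 15.7 and 16.7 in b-catenin-OE, so both knockout groups lay below every sample of the other groups. Ctnnb1, the gene of b-catenin, overlapped between Control (369 to 435 FPKM) and b-catenin-OE (372 to 411 FPKM).

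Markers of Schwann cells were present and most defining markers of oligodendrocytes were not. All 11 of the Schwann cell markers used were tested, and their summed level was 262 to 529.9 FPKM per sample. Much of that sum came from S100b and Sox10, which are also made in the otic epithelium. In Control sample 2, for example, they measured 183.7 and 70.1 of 327.6 FPKM. Of 11 oligodendrocyte markers, 6 (Mog, Mobp, Opalin, Olig2, Ermn and Nkx2-2) were below 0.5 FPKM in all 12 samples. Opalin was listed at 0 in all of them. The summed level of the 11 was 4.64 to 8.65 FPKM. In these bulk samples, fewer Schwann cells and less myelin RNA per cell cannot be told apart.

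Of the 7 genes, 6 shared 1 outline, and Egr2 followed it in part. They were high in b-catenin-OE, high in Control sample 1, low in Control samples 2 and 3, intermediate in Notch1-KO samples 2 and 3 and low in the combined group. All 7 genes were lower in the combined group than in b-catenin-OE with no overlap between samples, beside 16.2% of all tested rows. All 7 were also higher in b-catenin-OE than in Notch1-KO without overlap, beside 14.9% of all tested rows. By group mean, the order was b-catenin-OE, Control, Notch1-KO and the combined group for 6 of the 7. Egr2 differed, with 8.41 ± 0.668 FPKM in b-catenin-OE, 4.76 ± 3.52 in Control, 4.75 ± 0.443 in the combined group and 3.36 ± 0.344 in Notch1-KO (mean ± SD, n = 3). The Control samples overlapped those of both neighbours in that order for all 7 genes, and sample 1 set the spread of Control.

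**Figure D1:**
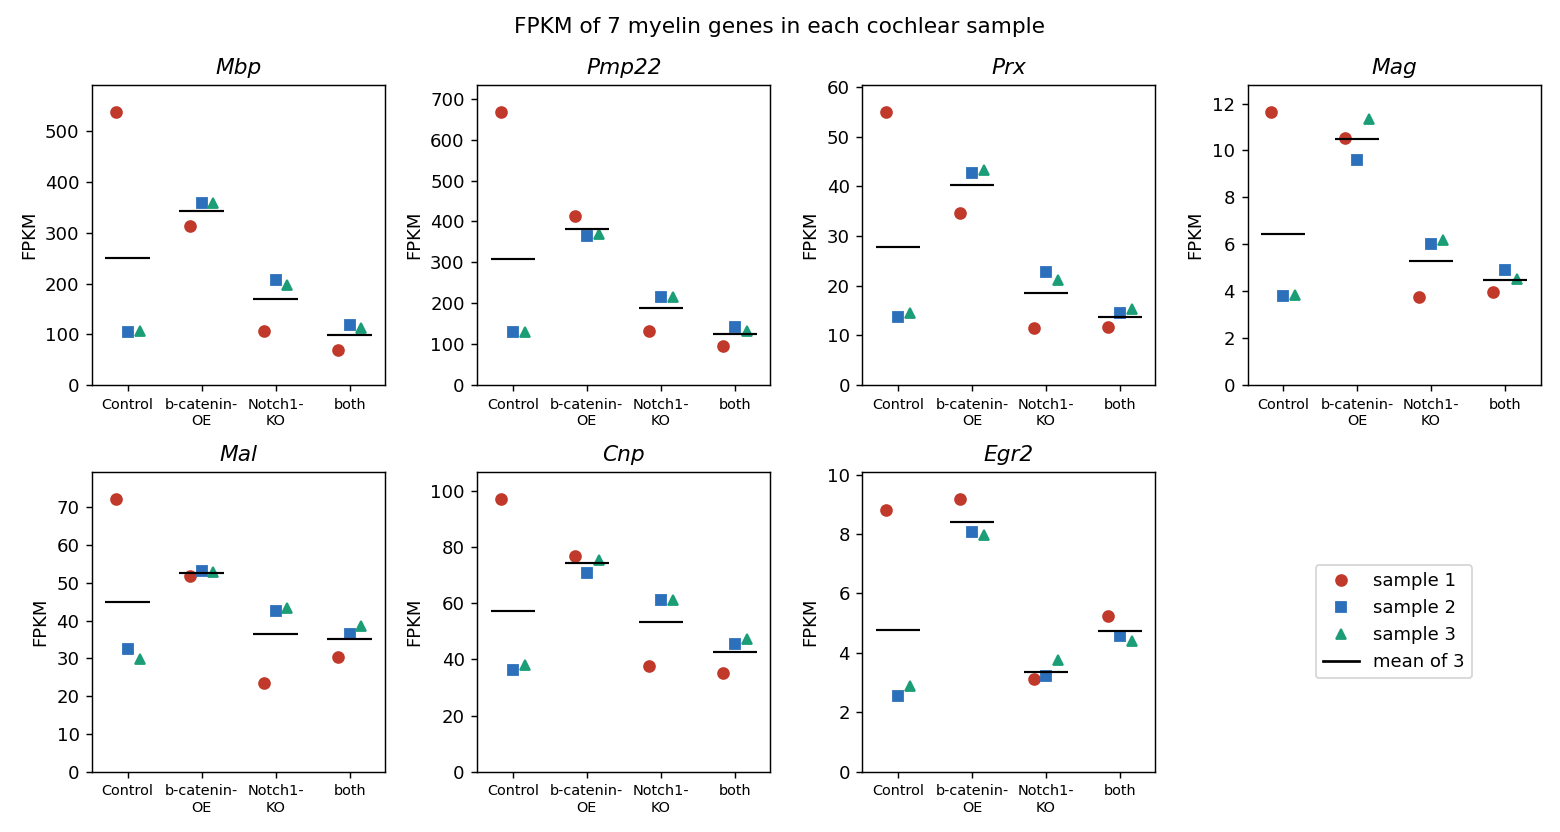
FPKM (vertical axis, linear, from 0) of each gene in the 4 groups; points are samples 1, 2 and 3 and bars are group means, with "both" for the combined group. Control sample 1 lies far above Control samples 2 and 3 in every panel, and every b-catenin-OE sample lies above every sample of the combined group.

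Mbp, which seals the cytoplasmic faces of compact myelin, was the second most abundant of the 7 per transcript length. It measured 538, 105 and 107 FPKM in Control samples 1, 2 and 3, 314, 358 and 358 in b-catenin-OE, 106, 207 and 197 in Notch1-KO, and in the combined group 68.5, 118 and 111. Control spanned the values of all other groups except the lowest, 68.5 FPKM in the combined group, while b-catenin-OE lay wholly above Notch1-KO and the combined group. The gene covered a 7.84-fold range over the 12 samples, more than any other of the 7.

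Pmp22, a tetraspan membrane protein of compact myelin whose dosage is critical in peripheral nerve, had the highest levels of the 7 in each sample. It measured 667, 129 and 130 FPKM in Control, 412, 364 and 369 in b-catenin-OE, 133, 216 and 215 in Notch1-KO, and in the combined group 96.3, 142 and 133. Its samples fell in the same places as those of Mbp, with b-catenin-OE above Notch1-KO and the combined group and Control on both sides. The locus that the table gives for Pmp22 on mm10, chr11:62951193-63386069, is 434877 bases long against 30566 in GENCODE M21. It spans the coding genes Cdrt4 and Tekt3, and how fragments from them were counted is not stated.

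Prx, periaxin, links the outer sheath membrane to the basal lamina. It measured 54.9, 13.7 and 14.6 FPKM in Control, 34.6, 42.7 and 43.3 in b-catenin-OE, 11.4, 22.7 and 21.1 in Notch1-KO, and in the combined group 11.6, 14.5 and 15.2. The b-catenin-OE samples lay above all others except Control sample 1. Its locus (chr7:27499308-27520147) overlaps exons of the antisense gene Gm15541, and whether counting used strand is not stated.

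Mag, an adhesion protein of the sheath membrane next to the axon, was measured at low levels, at 11.6, 3.81 and 3.86 FPKM in Control, 10.5, 9.61 and 11.3 in b-catenin-OE, 3.74, 6.0 and 6.16 in Notch1-KO, and in the combined group 3.95, 4.90 and 4.52. Again b-catenin-OE was apart from Notch1-KO and the combined group, which overlapped each other.

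Mal, a raft protein that sorts myelin membrane, measured 72.2, 32.5 and 29.9 FPKM in Control, 51.7, 53.2 and 52.8 in b-catenin-OE, 23.5, 42.5 and 43.2 in Notch1-KO, and in the combined group 30.2, 36.4 and 38.6. The 3 b-catenin-OE samples were within 1.03-fold of each other. Cnp, which keeps cytoplasmic channels open in non-compact myelin, measured 97.2, 36.2 and 38.0 FPKM in Control, 76.8, 70.7 and 75.3 in b-catenin-OE, 37.7, 61.1 and 61.3 in Notch1-KO, and in the combined group 35.3, 45.4 and 47.2. Mal and Cnp kept the outline with a smaller range over the 12 samples, 3.08-fold and 2.75-fold. Exons of Cnp (chr11:100574939-100581739) overlap those of Dnajc7 on the other strand.

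Egr2, the regulator, measured 8.82, 2.57 and 2.89 FPKM in Control, 9.18, 8.08 and 7.98 in b-catenin-OE, 3.12, 3.21 and 3.76 in Notch1-KO, and in the combined group 5.25, 4.59 and 4.41. Unlike the other 6 genes, it was higher in every sample of the combined group than in any of Notch1-KO. Its lowest sample was Control sample 2, where the other 6 had theirs in sample 1 of Notch1-KO or of the combined group.

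Control sample 1 against Control samples 2 and 3 was the widest gap within any group. Its levels were 2.31 to 5.14 times the mean of samples 2 and 3, the smallest for Mal and the largest for Pmp22. Among all tested rows in Control, 95.5% to 99.3% had a log2 gap smaller in size than each of the 7 genes. The same ratio was 0.804 to 1.14 in b-catenin-OE, 0.522 to 0.895 in Notch1-KO and 0.598 to 1.17 in the combined group. Sample 1 was therefore high in Control and lower for all 7 genes in Notch1-KO. Of 16 neuronal markers, 13 were also higher in Control sample 1 than in samples 2 and 3, and 3 (Syt1, Uchl1 and Isl1) were lower. Snap25, a synaptic vesicle fusion protein, measured 70.8 FPKM in sample 1 and 9.14 and 9.45 in samples 2 and 3, while Uchl1, a neuronal ubiquitin hydrolase, measured 275.0, 342 and 360.2. Markers of other cells differed in Control sample 1 too. All 7 tested macrophage markers, all 6 of bone and cartilage and 5 of 6 endothelial ones were higher than in samples 2 and 3. Of 8 otic epithelial markers, 2 were higher and 6 lower. The part of neurons or of these other cells in the gap was not tested.

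In b-catenin-OE against Control, no gene of the 7 passed the test, where 2.24% of all tested rows did. The differences were 0.35 to 0.95, all positive, with a median of 0.83 against -0.0082 over all tested rows, and the adjusted p-values were 0.20 to 0.733. The largest were Egr2 at 0.95 ± 0.33 (limma, adjusted p = 0.20) and Mbp at 0.91 ± 0.53 (limma, adjusted p = 0.503). Unadjusted p-values were under 0.05 for 2 genes, Egr2 and Mag, beside 14% of all rows, and no gene was without overlap between the groups, beside 7.89% of all rows that were higher without it.

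This comparison turned on Control sample 1. Between the samples numbered 1 the differences were -0.78 to 0.06, and between the means of samples 2 and 3 they were 0.76 to 1.76, positive for all 7. Without Control sample 1, 6 of the 7 rose, all but Mal, where 6.19% of all rows passed in either direction and 3.48% rose. The differences were then 1.69 ± 0.29 for Mbp (limma, adjusted p = 0.0088), 1.55 ± 0.22 for Pmp22 (adjusted p = 0.00357), 1.46 ± 0.13 for Egr2 (adjusted p = 0.000296) and 0.74 ± 0.23 for Mal (adjusted p = 0.0825). In every fit with only that sample left out, here and below, Control was samples 2 and 3 alone. The other groups kept their samples numbered 1. Control sample 1 is singled out for its gap in these same genes, so the p-values of such fits are descriptive and likely too small. A pool shared by samples 2 and 3 would make them too small as well.

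In Notch1-KO against Control, the differences were -0.33 to 0.03, and none of the 7 passed, where 0.857% of all rows did. The lowest adjusted p was 0.955, and no unadjusted p was under 0.05, beside 8.27% of all rows. The sample numbers went opposite ways for every gene: the differences were -2.34 to -1.35 between the samples numbered 1 and 0.30 to 0.93 between the means of samples 2 and 3. With that Control sample left out they were 0.17 to 0.62, and none passed (limma, adjusted p 0.604 to 0.999), where 0.702% of all rows did.

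The combined group against Control gave differences of -0.91 to 0.19, with none of the 7 past the threshold although 12.5% of all rows were. Mbp at -0.91 ± 0.53 and Pmp22 at -0.88 ± 0.50 had the lowest values (limma, adjusted p = 0.307 and 0.305), and Egr2 had the only positive one, 0.19 ± 0.33. No unadjusted p was under 0.05, beside 26.3% of all rows. Between the samples numbered 1 all 7 genes were lower (-2.96 to -0.70), and between samples 2 and 3 all 7 were higher (0.072 to 0.63). When Control sample 1 was left out, Egr2 alone of the 7 passed, at 0.70 ± 0.13 (limma, adjusted p = 0.00666), where 12% of all rows passed.

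The authors' deposited table gives fold changes for these 3 comparisons, and in all rows compared they equal the log2 ratio of mean FPKM within 0.01. For Mbp, the authors' deposited table lists 0.46 with p = 0.0441 in b-catenin-OE. The authors' deposited table also lists -0.55 with p = 0.0187 for Notch1-KO and -1.33 with p = 5e-05 in the combined group. For Egr2, the authors' deposited table lists 0.82 with p = 0.00075, -0.50 with p = 0.0527 and -0.002 with p = 0.994 in the same order. A ratio of means gives Control sample 1 more weight than a mean of logs does, and all 3 comparisons share the Control samples.

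The combined group against b-catenin-OE uses no Control sample in its difference. All 7 genes were lower in the combined group, with differences of -1.82 to -0.58 and a median of -1.15 against 0.003 over all tested rows. The groups did not overlap for any of the 7, beside 16.2% of all tested rows that were lower without overlap. None passed the adjusted threshold, which 2.72% of all rows did, and 6 of the 7 had an unadjusted p under 0.05, beside 18.2% of all rows. Mbp was lowest at -1.82 ± 0.53 (limma, adjusted p = 0.0973), followed by Pmp22 at -1.64 ± 0.50 (0.115), Prx at -1.51 ± 0.44 (0.0975) and Mag at -1.15 ± 0.34 (0.102). Cnp at -0.80 ± 0.32, Egr2 at -0.76 ± 0.33 and Mal at -0.58 ± 0.31 differed less (limma, adjusted p = 0.216, 0.242 and 0.34).

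This difference had 1 direction in both sets of sample numbers: -2.19 to -0.75 between the samples numbered 1 and -1.64 to -0.49 between samples 2 and 3. Its standard errors come from a spread shared by all 4 groups, Control sample 1 included. Without that sample the differences themselves were the same, and 6 of the 7 fell, all but Mal (limma, adjusted p = 0.112), where 7.04% of all rows passed and 4.11% fell. Mbp then had an adjusted p of 0.00409 and Pmp22 of 0.0023. With only the 2 groups in the fit, 6 of the 7 also fell, where 1.56% of all rows passed.

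**Figure D2:**
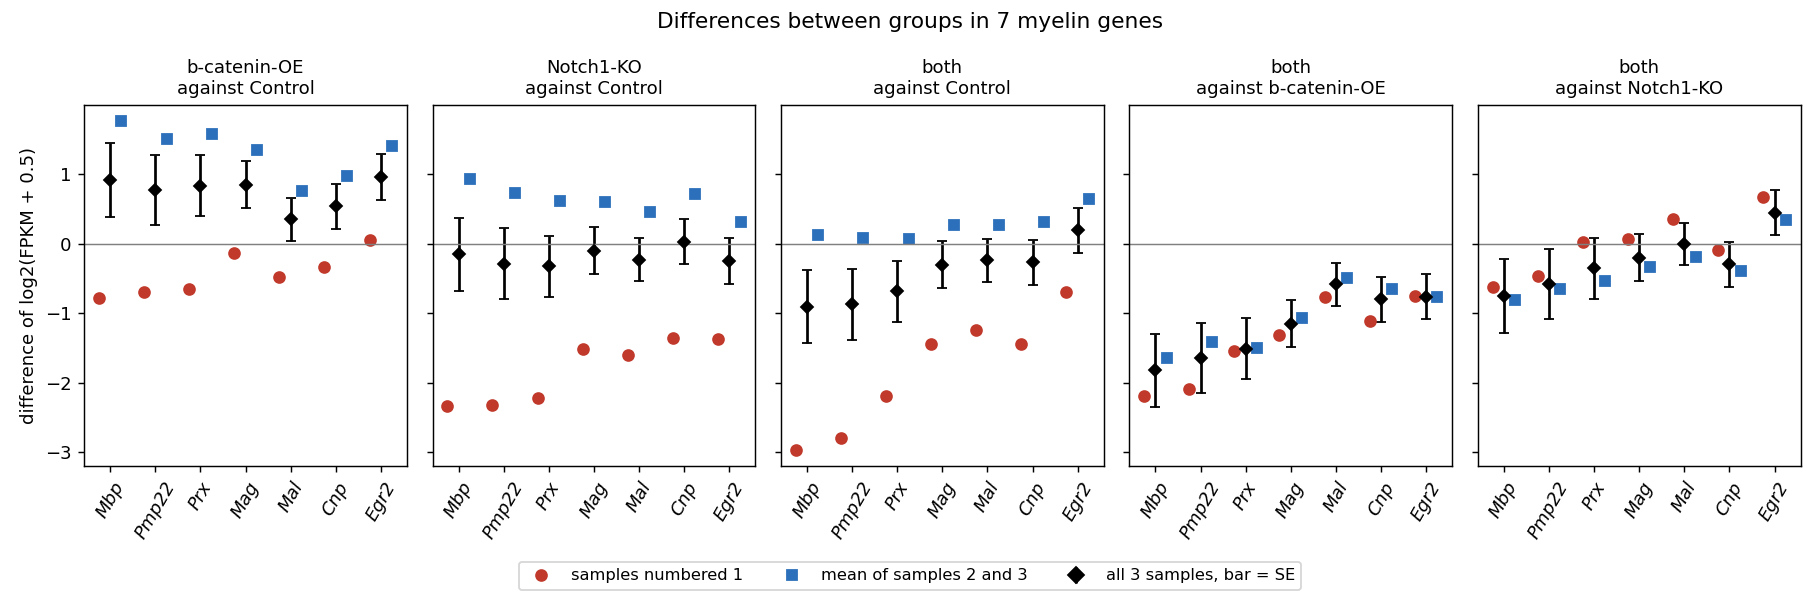
Differences of log2(FPKM + 0.5) (vertical axis) in 5 comparisons: diamonds with standard errors use all 3 samples per group, circles the samples numbered 1 and squares the mean of samples 2 and 3. In the 3 comparisons with Control, circles and squares stand apart, and against b-catenin-OE all markers of all 7 genes lie below 0.

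The combined group against Notch1-KO gave -0.75 to 0.44, with none of the 7 past the threshold, where 10.1% of all rows were, and no unadjusted p under 0.05, beside 22.7% of all rows. Egr2 was higher without overlap, at 0.44 ± 0.33 (limma, adjusted p = 0.49), beside 16.1% of all rows. No other of the 7 was apart, and the median was -0.30. Without Control sample 1, Egr2 alone passed (limma, adjusted p = 0.0334) with the same difference, where 13.7% of all rows passed. The interaction, which is the effect of Notch1-KO on the b-catenin-OE background minus its effect on Control, was -1.67 to -0.35 and passed for none of the 7, where 0.0206% of all rows passed. Only for Mbp was the unadjusted p under 0.05, beside 8.41% of all rows. It was positive between the samples numbered 1 (0.15 to 0.84) and negative between samples 2 and 3 (-2.57 to -0.95). Without Control sample 1 it passed for 4 genes, Mbp, Pmp22, Mag and Egr2 (limma, adjusted p 0.0226 to 0.0451), where 0.447% of all rows passed.

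The proportions among the 7 genes were not fixed. Mbp over Pmp22 was the steadiest ratio computed, 0.712 to 0.983, a 1.38-fold range against ranges of 7.84-fold and 6.93-fold for the genes themselves. Egr2 over Mbp had a 4.94-fold range. It was 0.0766, 0.039 and 0.0396 in the combined group and 0.0155 to 0.0294 in the 9 other samples, so the combined group lay apart. Cnp over Mbp was also highest in the combined group, at 0.516, 0.386 and 0.423, and the 9 other samples had 0.181 to 0.357. Mag over Mbp was apart there too, at 0.0577, 0.0416 and 0.0406 against 0.0216 to 0.0364. Mal over Mbp had its highest value there (0.441) but overlapped Control. All these ratios share Mbp, which had its lowest group mean in the combined group. Prx over Mbp stayed between 0.102 and 0.169, with the highest value in sample 1 of the combined group. These ratios were not tested.

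**Figure D3:**
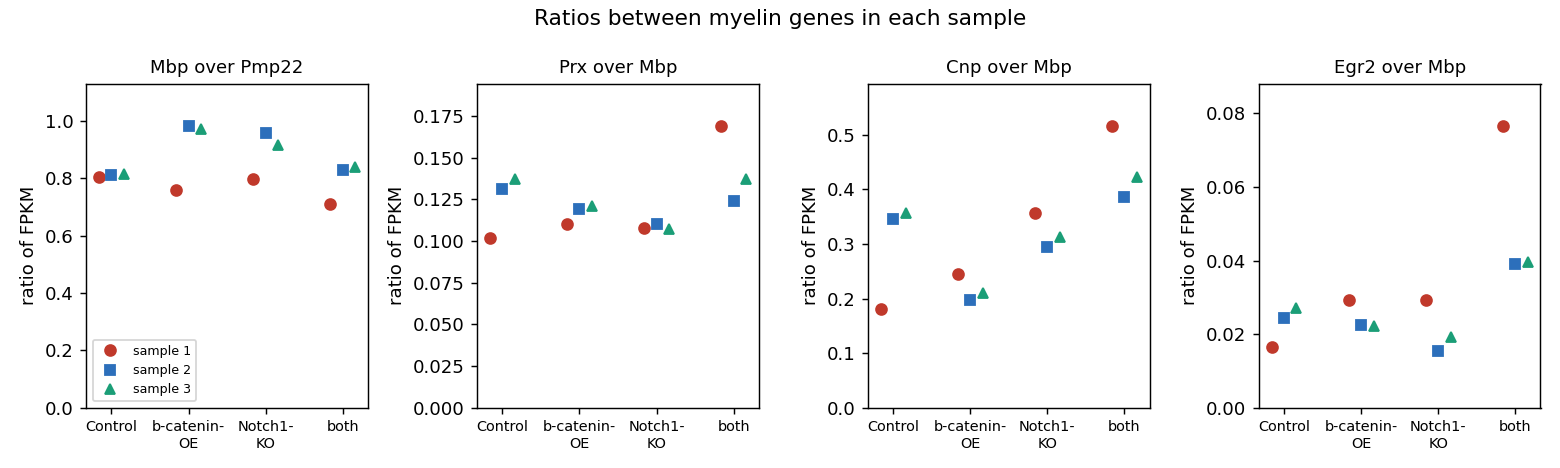
Ratios of FPKM (vertical axes, linear, from 0) between pairs of the genes in each sample of the 4 groups, with points as in the plot of FPKM by sample. Egr2 over Mbp and Cnp over Mbp are higher in all 3 samples of the combined group than in any other sample.

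The likeness of profiles was measured as the root mean square difference of log2(FPKM + 0.5), centred on each gene's mean, over the 12 samples and 13202 rows of at least 1 FPKM on average. Mbp and Pmp22 were nearest to each other (0.14). Next came Prx (0.205) for Mbp and Gldn, gliomedin of the nodes of Ranvier (0.142), for Pmp22. Prx was nearest to Pmp22 (0.191), Pllp, plasmolipin (0.192), and Gjc3, a connexin (0.193). Mal and Cnp were 0.145 apart. Mal had Rasal2 (0.143) and Mfap3l (0.15) beside it, and Cnp had Col23a1 (0.132) and Dhh, a Schwann cell ligand (0.133). Mag had Arhgap19 (0.109), P2rx3, an ATP-gated channel of sensory neurons (0.139), and Pllp (0.153). Egr2 was nearest to Itga7, a laminin receptor subunit (0.136), Gas2l3 (0.188) and Dusp4 (0.203). Its distance to Mbp was 0.607, which put Mbp at place 4916 by nearness. Mbp was also far down the order for Mal (0.53, place 8201) and Cnp (0.449, place 2640). Counted from Mbp, Egr2 stood at place 203. Profiles were not scaled for their range, so a gene of small range lies near many flat rows. A place thus reflects range as well as shape. All distances share the 12 libraries, Control sample 1 among them.

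Other genes of myelin and the Schwann lineage had a like outline, with exceptions. Of 25 listed, 24 were tested. Against Control, Pou3f1 and Ngfr rose and S100b fell in b-catenin-OE, where 2.24% of all rows passed, and the median difference of the 24 was 0.72 against -0.0082 over all rows. Pou3f1 (Oct6), a factor that precedes Egr2 in the lineage, measured 8.52, 3.03 and 2.51 FPKM in Control and 10.3, 14.8 and 15.3 in b-catenin-OE, a difference of 1.59 ± 0.34 (limma, adjusted p = 0.0321). All 3 b-catenin-OE samples were above Control. Ngfr, the p75 neurotrophin receptor of immature Schwann cells, rose by 1.43 ± 0.14 (limma, adjusted p = 0.000366). S100b, a calcium-binding protein also made in the otic epithelium, fell by 1.04 on the log2 scale (limma, adjusted p = 0.0102). Without Control sample 1, 14 of the 24 rose, beside 3.48% of all rows, and 2 fell, with a median of 1.08.

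In the combined group against b-catenin-OE, 2 of the 24 fell and none rose, where 2.72% of all rows passed, and the median was -0.79. They were Ugt8a, which makes the myelin lipid galactosylceramide (-1.44 ± 0.32; limma, adjusted p = 0.0401), and S100b (-0.78 ± 0.18; adjusted p = 0.0417). Of the 24, 16 were lower without overlap, beside 16.2% of all rows. Leaving out Control sample 1, 13 of the 24 fell, beside 4.11% of all rows. Sox10, which marks the whole Schwann lineage but is also made in the otic epithelium, did not share the outline. It measured 71.5, 70.1 and 85.0 FPKM in Control, 88.6, 76.0 and 78.5 in b-catenin-OE, 106, 80.7 and 77.2 in Notch1-KO, and in the combined group 116, 89.4 and 84.0. Erbb3, the neuregulin receptor of the lineage, ranged from 21.6 FPKM in Control sample 1 to 37.6 in b-catenin-OE sample 3, and Control sample 1 was its lowest sample where it was the highest of 6 of the 7 genes.

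Against Control, the combined group had 1 of the 24 higher, Ngfr (1.47 ± 0.14; limma, adjusted p = 7.36e-05), and 3 lower, S100b, Ugt8a and Fxyd3, a regulator of the sodium pump, where 12.5% of all rows passed. Against Notch1-KO it again had Ngfr higher (1.38 ± 0.14; limma, adjusted p = 0.000158), with S100b and Fxyd3 lower, where 10.1% of all rows passed. In Notch1-KO against Control and in the interaction, none of the 24 passed, where 0.857% and 0.0206% of all rows did. Unadjusted p-values were under 0.05 for 2 and 3 of the 24, beside 8.27% and 8.41% of all rows.

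Of 26 regulators of peripheral myelination, Pou3f1 alone passed in b-catenin-OE against Control, where 2.24% of all rows did. In the combined group against b-catenin-OE, 2 fell, where 2.72% of all rows passed. They were Adgrg6 (listed as Gpr126), an adhesion receptor that Schwann cells need to begin myelination (-1.22 ± 0.16; limma, adjusted p = 0.00285), and Pou3f2 (Brn2), a relative of Pou3f1 (-0.88 ± 0.20; adjusted p = 0.0401). Gpr126 measured 11.2, 7.97 and 7.60 FPKM in b-catenin-OE and 3.97, 3.05 and 3.49 in the combined group. It was also low in the combined group against Control (-1.36 ± 0.16; limma, adjusted p = 0.000204) and against Notch1-KO (-0.69 ± 0.16; adjusted p = 0.0152), so the combined group was the lowest in all 3 comparisons. Against Control, the combined group also had Sox2, Id4 and Nab1 lower and Nfatc4 higher, which made 5 of 26 beside 12.5% of all rows. Sox2 and Id4 restrain myelination in Schwann cells, but Sox2 is also made by cochlear supporting cells. Against Notch1-KO it had Gpr126, Sox2 and Pou3f2 lower and Nfatc4, a calcineurin-dependent partner of Sox10, higher, which made 4 of 26 beside 10.1% of all rows. In Notch1-KO against Control none of the 26 passed, where 0.857% of all rows did (3 unadjusted p-values under 0.05, beside 8.27% of all rows). The medians were within 0.16 of 0 in every comparison.

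Of 29 genes of cholesterol and myelin lipid synthesis, none passed in b-catenin-OE against Control, where 2.24% of all rows did. The median was -0.11, and 6 unadjusted p-values were under 0.05, beside 14% of all rows. In the combined group against Control 4 of 29 fell and none rose, a share close to the 12.5% of all rows that passed. They were Sc5d (-0.83 ± 0.14; limma, adjusted p = 0.0022), Ugt8a (-1.24 ± 0.32; 0.0264), Hmgcs1 (-0.67 ± 0.18; 0.0281) and Cyp51 (-0.55 ± 0.15; 0.0374). Of these, Sc5d, Hmgcs1 and Cyp51 are enzymes of sterol synthesis in most cells. Against b-catenin-OE 1 of the 29 fell, Ugt8a, beside 2.72% of all rows, and against Notch1-KO 1 fell, Sc5d, beside 10.1%. Of 13 genes of the nodes and paranodes, 2 fell in the combined group against Control, Nrcam and Cntn1, also close to the 12.5% of all rows. Nrcam, an axonal and glial adhesion protein, was also lower against b-catenin-OE (-1.37 ± 0.17; limma, adjusted p = 0.0024) and against Notch1-KO (-1.01 ± 0.17; adjusted p = 0.00281). None of the 13 passed in b-catenin-OE or Notch1-KO against Control, where 2.24% and 0.857% of all rows did. Unadjusted p-values were under 0.05 for 3 and 2 of the 13, beside 14% and 8.27% of all rows.

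Most neuronal markers were lower in the combined group than in b-catenin-OE, as the myelin genes were, but their samples did not fall in the same places throughout. The 16 spiral ganglion neuron markers summed to 558 to 732 FPKM in b-catenin-OE and 319 to 374 in the combined group. Their median difference between these groups was -0.985, 2 of 16 fell (Syt1 and Isl1) and none rose, beside 2.72% of all rows, and 12 were lower without overlap, beside 16.2%. Nefl, the light neurofilament, measured 102, 52.2 and 50.7 FPKM in b-catenin-OE and 15.8, 25.9 and 25.5 in the combined group. In Control it measured 93.3, 21.3 and 24.6 FPKM, high in sample 1 as the myelin genes were. Syt1, a calcium sensor of synaptic vesicles, measured 40.1, 43.4 and 41.4 FPKM in Control, 32.9, 24.9 and 26.5 in b-catenin-OE and 14.3, 13.8 and 13.4 in the combined group, so it was lower in b-catenin-OE than in Control. In b-catenin-OE, 14 of the 16 markers were higher in sample 1 than in samples 2 and 3, where the myelin genes had no such gap. The sums in Control were 569 to 783 and in Notch1-KO 428 to 521 FPKM. The part of neuronal content in the myelin differences was not tested.

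Markers of other cells were not all alike. The 9 markers of satellite or non-myelinating glia summed to 457 to 537 FPKM in b-catenin-OE and 508 to 600 in the combined group, but 5 of the 8 tested had lower values. Glul, glutamine synthetase, rose (0.96 ± 0.10; limma, adjusted p = 0.00122), from 204 to 218 FPKM to 402 to 424 FPKM. These 5 were lower without overlap in the combined group, beside 16.2% of all rows, and the median of the 8 was -0.40. Fabp7, a fatty acid-binding protein of glia, measured 155, 237 and 224 FPKM in b-catenin-OE and 37.2, 91.8 and 95.2 in the combined group. Mesenchymal markers summed to 2374 to 2596 and 1712 to 2303 FPKM, otic epithelial markers to 617 to 809 and 568 to 657, bone and cartilage markers to 988 to 1901 and 878 to 1401, endothelial markers to 193 to 283 and 334 to 452, and macrophage markers to 72.2 to 107 and 120 to 270. The summed melanocyte markers were 7.32 to 13.8 and 4.95 to 5.77 FPKM and the erythroid ones 28.0 to 41.5 and 3.62 to 15.0. Mesenchymal, neuronal, melanocyte and erythroid sums were thus lower in the combined group without overlap, and endothelial and macrophage sums were higher. The endothelial sum followed Emcn, a sialomucin, which measured 158 to 249.6 FPKM in b-catenin-OE and 291 to 426 in the combined group. Of the 6 endothelial markers, 3 were lower without overlap and 1, Emcn, was higher, and the median was -0.17. For the 7 macrophage markers the median was 0.68, with 1.76 between the samples numbered 1 and 0.165 between samples 2 and 3. Their sum in the combined group was 270 FPKM in sample 1 and 125 and 120 in samples 2 and 3. The higher macrophage level thus lay mostly in 1 sample. The part of all these cells in the myelin differences was not tested.

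**Figure D4:**
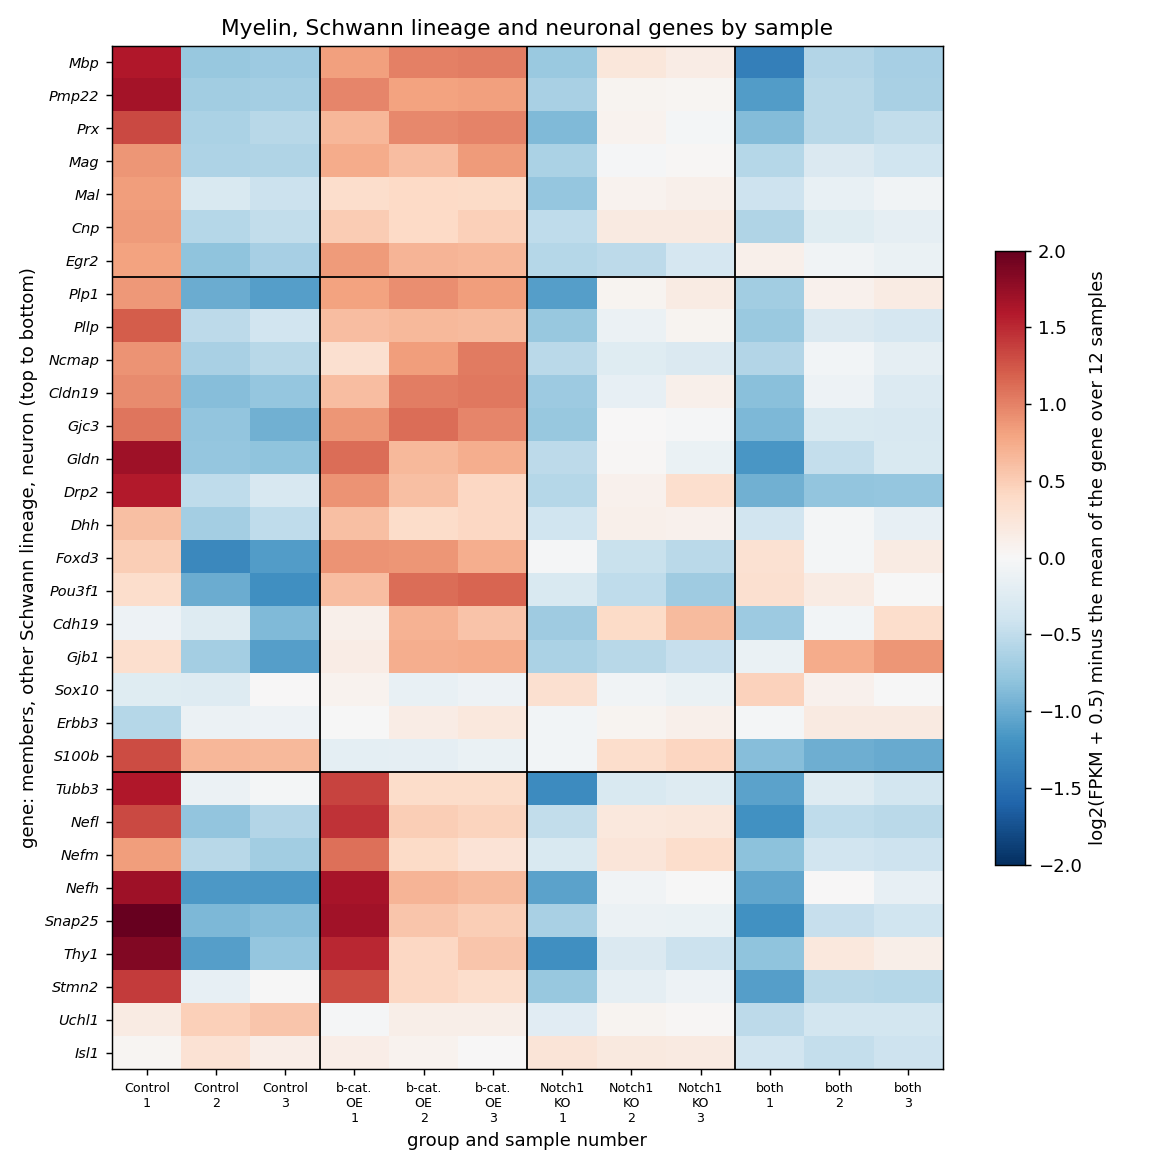
Log2(FPKM + 0.5) minus each gene's mean over the 12 samples (colour), for the 7 genes (top block), some other Schwann lineage genes (middle) and some neuronal markers (bottom), with samples in columns and "both" for the combined group. The middle and bottom blocks are selections from the 24 and 16 genes tested. Genes left out include Dusp15, which had the outline, and Fxyd3 and Syt1, which did not. Most rows of the top and middle blocks are red in Control sample 1 and in b-catenin-OE. Sox10 is pale in both, and Erbb3 is blue in Control sample 1. S100b is red in Control, pale in b-catenin-OE and blue in the combined group. Most neuronal rows are reddest in sample 1 of Control and b-catenin-OE.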

How the data were processed

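RNA-seq of 12 cochlear samples (4 groups of 3, postnatal day 7) was used as 1 table of FPKM values that the authors deposited for the whole series. Per the submitters' processing notes, the build was mm10 and the tools included Cufflinks 2.2.1, Cuffdiff, TopHat2 2.0.10, Bowtie2 2.2.1, Trimmomatic 0.23 and CASAVA 1.8. Their order, the annotation, strandedness and any rescaling are not stated. The authors' deposited log2 fold changes against Control and p-values are quoted for 2 genes only. Starts of loci were raised by 1 to count from 1.

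Groups and sample numbers came from the sample titles. Values were tested as log2(FPKM + 0.5) with limma 3.58.1 (R 4.3.3). The 14581 rows tested had 0.5 FPKM or more in 3 or more samples, and 1 fit held the 4 group means of all 12 samples with an empirical Bayes spread that follows the mean. The two-sided p was adjusted by Benjamini-Hochberg in each of 6 comparisons and called under 0.05. The offset of 0.5 understates differences of low genes. The method was tested on simulated data with independent samples. The simulation had no sample that stood apart and no structure shared by sample number, so it does not cover these features of the data. FPKM holds no counts, so no count test was run and precision rests on 3 samples per group.

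Named genes are the 7 members, Notch1 and Ctnnb1, up to 4 genes per list with the smallest p among those past the threshold (otherwise up to 3 of the highest mean), and the 3 rows nearest to each member. Genes that are not reported here were left out of the lists, sums and nearest rows. Sox10, Erbb3, Nefl, Snap25, Syt1, Uchl1, Isl1, Fabp7 and Emcn were named after their values were seen, as were list genes beyond 4. The members, lists and tests were chosen with earlier results of these data known. Alternatives were the offset, the filter, the sample number as a block, samples 2 and 3 averaged or alone, equal medians, no trend, 2 groups per fit and leaving out each sample. At the same sample number, deviations from group means correlated positively between all groups (0.0635 to 0.47), and at 0.209 to 0.47 for samples numbered 1. Some structure was thus shared by sample number, and the labels do not say why. The main fit left the groups unpaired, since not every pair was over 0.1. Of the listed genes, 3 were matched by an older symbol.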

Additional observations from a re-analysis of the deposited data

How the results depend on the processing

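No member passed in any of the 6 comparisons with other offsets or filters, with equal medians, without a trend, with samples 2 and 3 averaged, or with a replicate block for the sample number (0 of 7 each). Sample numbers shared some structure across groups, but the labels do not say that they pair them. The block moved the count over all rows from 327 to 635 for b-catenin-OE against Control and from 396 to 826 for the combined group against b-catenin-OE. Averaging samples 2 and 3 gave 10 and 0.

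With samples 2 and 3 only, members called were 7 for b-catenin-OE, 6 for Notch1-KO and 4 for the combined group against Control, 7 against b-catenin-OE, 7 against Notch1-KO and 7 for the interaction. Of all rows, 39%, 11.9%, 42.1%, 29.4%, 42.4% and 19.3% then passed, and if those samples share a pool these p-values are too small. Signs turned in Notch1-KO against Control for Mbp (0.93), Pmp22 (0.73), Mag (0.60), Prx (0.61), Mal (0.45) and Egr2 (0.30), and in the combined group against Control for Cnp (0.32), Mag (0.26), Mal (0.26), Mbp (0.12), Pmp22 (0.080) and Prx (0.072). Averaging turned Cnp in Notch1-KO (-0.32) and Egr2 in the combined group (-0.031) against Control, and Mal in the combined group against Notch1-KO (0.083). Fitting only the 2 groups compared gave 6 members for the combined group against b-catenin-OE and 0 elsewhere.

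Leaving out each sample in turn gave 0 to 6 members in b-catenin-OE, 0 in Notch1-KO and 0 to 1 in the combined group against Control, 0 to 6 against b-catenin-OE, 0 to 1 against Notch1-KO and 0 to 4 in the interaction. Each nonzero count came without Control sample 1. Signs turned in Notch1-KO against Control for Mbp (-0.55 to 0.62), Pmp22 (-0.68 to 0.50), Mag (-0.36 to 0.39), Prx (-0.67 to 0.31), Egr2 (-0.54 to 0.26), Mal (-0.46 to 0.17) and Cnp (-0.22 to 0.48). They also turned in the combined group against Control for Mag (-0.56 to 0.19), Egr2 (-0.10 to 0.70), Mal (-0.47 to 0.16) and Cnp (-0.52 to 0.19), and against Notch1-KO for Mal (-0.29 to 0.14). No sign turned in the combined group against b-catenin-OE. The counts of the other lists without Control sample 1 were chosen after seeing the data.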
